A study of Rattus norvegicus with 20 samples.

Results

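The BCL2 family was followed in neonatal rat heart cultures by the array probes named for 10 of its genes. The genes were Bcl2, Bcl2l1 and Mcl1, whose products restrain apoptosis, Bax and Bak1, the pore-forming effectors, and Bid, Bad, Bbc3, Pmaip1 and Bcl2l11, the BH3-only members. Probes were taken by the gene name that the array files give, which found 16 of the 41012 probes, for 9 of the 10 genes, among 35561 names on the array. Pmaip1 (NOXA) had no probe under that name and was not analysed here. Tests took only probes whose signal stood well above background throughout 1 group or more, and 13 of the 16 probes, for 7 genes, met this.

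Proteins of this family decide whether the outer membrane of the mitochondrion is opened and cytochrome c is released. Bcl2, Bcl2l1 (BCL-XL) and Mcl1 bind and hold back Bax and Bak1, while the BH3-only proteins, made or modified in response to stress, bind the guardians or the effectors and favour opening. Heart muscle cells are long-lived, and Mcl1 and Bcl2l1 are known for keeping their mitochondria intact.

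Primary cultures from hearts of neonatal rats were grown for 1 day and then treated with celecoxib, a selective inhibitor of cyclooxygenase-2, or left untreated. The 6 celecoxib groups, of 3 arrays each, took the reference concentrations 1/25, 1/5 and 1 for 6 h and the same concentrations for 24 h. The untreated cultures gave 2 arrays. The labels give concentrations only relative to a reference, no vehicle, and no time for the untreated cultures, and nothing in them says that the replicates came from separate animals, so p-values measure the spread between these arrays, which may be technical.

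Levels are log2 values relative to the 75th percentile of the same array, so 0 is that percentile, and changes are differences of such levels. Changes were tested with limma across all tested probes, with p-values adjusted by the Benjamini-Hochberg method and a threshold of 0.05. Of the probes, 63.5% to 83.1% were well above background on an array, and no member probe was saturated. The arrays were scanned on 2 days: the untreated and all 24 h arrays on day 1, all 3 arrays of 1/5 for 6 h on day 2, and the other 6 h groups on both. For the comparisons of 1/5 for 6 h with untreated and with 1/5 for 24 h, scan day and treatment cannot be told apart within the groups compared. All 8 cardiomyocyte marker genes were well above background on all 20 arrays. Their summed level was 14.6 to 43.6 times the 75th percentile at 1/25 for 6 h. It was 18 to 21.1 at 1/5 and 19.1 to 37.2 at 1 for 6 h. At 24 h it was 23.8 to 31 at 1/25, 33.4 to 37.3 at 1/5 and 18.3 to 33.3 at 1. Untreated cultures gave 21.9 to 25.3. At 6 h, endothelial markers (2 genes) summed to 3.34 to 5 at 1/25, 3.27 to 3.62 at 1/5 and 3.74 to 4.54 at 1. The untreated sum was 2.97 to 3.05, and the 24 h groups gave 2.48 to 2.99, 2.51 to 3.09 and 2.72 to 3.47. Smooth muscle markers (3 genes) summed to 3.25 to 6.32 over all arrays, and the 1 erythroid gene read 0.108 to 0.722. Fibroblast markers (7 genes) summed to 16 to 27.8 over all arrays, and macrophage markers (5 genes) to 2.25 to 3.75 in celecoxib groups, against 3.7 to 4.18 in untreated cultures. The macrophage genes did not move one way. Cd14 changed by -1.25 to -0.44 by the probe in that sum (called lower at 1/25 for 6 h, adjusted p = 0.0444). Its other probe changed by -0.34 to 1.59 and was not called. Ctss was called higher by 1 of 2 probes in 5 of the 6 celecoxib groups, by 2.10 to 2.52 (adjusted p = 0.00754 to 0.0341). The other Ctss probe changed by 1.01 to 2.09 and was not called (smallest adjusted p = 0.0691). With scan day as a block in the fit, that probe was called higher at 1/25 for 6 h (2.19, adjusted p = 0.0198). It was also called at 1 for 6 h (1.79, adjusted p = 0.032) and at 1/25 for 24 h (2.09, adjusted p = 0.0383). One of 2 Ptprc probes was called lower at 1/25 for 24 h (-2.06, adjusted p = 0.03), and the median change of the 8 macrophage probes was 0.13 to 0.89 over the 6 groups. In such bulk RNA, fewer cells of a type and less RNA per cell cannot be told apart, and the part of cell makeup in the member results was not tested.

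The probes are 60-base oligonucleotides, and each reads only the transcripts that hold its sequence. Those of Bcl2, Bcl2l1, Bax and Bad that lie in coding sequence are shown because the levels of these 4 genes are read through them, and because Bcl2 and Bcl2l1 are related in sequence. Capitals mark the best-matching ungapped stretch of the Bcl2 and Bcl2l1 probes, 16 bases of which 13 are identical.
Bcl2 A_44_P280776: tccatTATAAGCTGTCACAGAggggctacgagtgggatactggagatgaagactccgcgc
Bcl2l1 A_44_P548065: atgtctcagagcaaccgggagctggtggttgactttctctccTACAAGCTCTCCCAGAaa
Bax A_43_P11800: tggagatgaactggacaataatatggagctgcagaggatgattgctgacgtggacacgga
Bad A_44_P199624: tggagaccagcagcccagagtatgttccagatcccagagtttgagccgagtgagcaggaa

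In the rat build rn3 that the array files use, the Bcl2 probe lies at chr13:12904758-12904817 on the minus strand. A second Bcl2 probe, A_44_P360756, lies 800 bases from it at chr13:12903960-12904017 and is annotated to AF149299 only. The Bcl2l1 probe lies at chr3:143084125-143084184 on the minus strand, and A_44_P254238, a Bcl2l1 probe annotated to a partly different set of transcripts, lies 49160 bases away at chr3:143034965-143035024. The Bad probe spans chr1:209775908-209776403 on the plus strand, a span longer than its 60 bases. Bax and Bbc3 carry no coordinate in the files.

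No member probe passed the threshold in any of the 12 comparisons fitted, which makes 0 of 156 pairs of probe and comparison. At an unadjusted p below 0.05 there were 16 such pairs, or 10.3%, against 14.9% over all tested probes, and the smallest adjusted p was 0.057. Against untreated cultures, 0 of 13 member probes were called at 1/25 for 6 h (5.69% of all probes were called), 1/5 for 6 h (6.22%), 1 for 6 h (0.413%), 1/25 for 24 h (0.274%), 1/5 for 24 h (0.271%) and 1 for 24 h (0.0536%). Between 24 h and 6 h, 0 of 13 were called at 1/25 (2.2% of all probes), at 1/5 (4.06%) and at 1 (0.167%). Between concentration 1 and 1/25, none of 13 was called at 6 h or at 24 h, nor in the difference of that effect between the times, and no probe on the array was (0% in each). With scan day as a block in the fit, 1 of the 156 pairs passed, Bbc3 at 1/25 for 6 h against untreated, where 10.5% of all probes were called. In that fit 0 of 13 member probes were called in the other 11 comparisons. Of all probes it called 0.797% at 1/5 and 7.45% at 1 for 6 h against untreated, 0.832%, 1.24% and 0.366% at 1/25, 1/5 and 1 for 24 h, and 2.09%, 0.0189% and 1.28% between the times at the same concentrations. Between concentration 1 and 1/25 it called 0% at 6 h and 0.0063% at 24 h, and 0% in the difference of that effect between the times.

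Some member probes had arrays that did not overlap between groups, and the share of all tested probes that did likewise is given beside each count. At 6 h against untreated, 0 of 13 lay wholly above and 2 wholly below at 1/25 (10.3% and 19.3% of all tested probes), 3 and 3 at 1/5 (20.1% and 30.8%) and 0 and 2 at 1 (10.2% and 16.7%). At 24 h, 1 lay above and 1 below at 1/25 (13.7% and 19.2%), 2 and 1 at 1/5 (20.2% and 19.2%) and 0 and 0 at 1 (11.6% and 16.5%). Between 24 h and 6 h, 2 lay above and 0 below at 1/25 (10.8% and 9.07%), 4 and 2 at 1/5 (26.6% and 21.6%) and 0 and 0 at 1 (7.46% and 6.49%). Between concentration 1 and 1/25, 0 lay above and 1 below at 6 h (2.95% and 1.36%), and 0 above and 1 below at 24 h (6.79% and 5.82%).

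The median change of the 13 member probes against untreated was -0.18 at 1/25 for 6 h, -0.11 at 1/5 for 6 h and -0.64 at 1 for 6 h. Over all tested probes the medians were -0.20, -0.19 and -0.08 in the same order of concentrations. At 24 h the member medians were -0.05, -0.26 and 0.08 at 1/25, 1/5 and 1, and those of all tested probes were -0.05, -0.04 and 0. The 6 comparisons share the 2 untreated arrays, so each value draws on the same pair. That pair differed by more than 1 on the log2 scale at 7 of the 13 member probes, 6 of them higher on replicate 1, against 24.8% of all tested probes. The 2 arrays also differ as a whole. Of all probes, 82.5% were well above background on replicate 1 and 66.1% on replicate 2. The 75th percentile was 4.07 times the array median on replicate 1 and 5.27 times on replicate 2. The part of this in the member values was not tested.

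**Figure D1:**
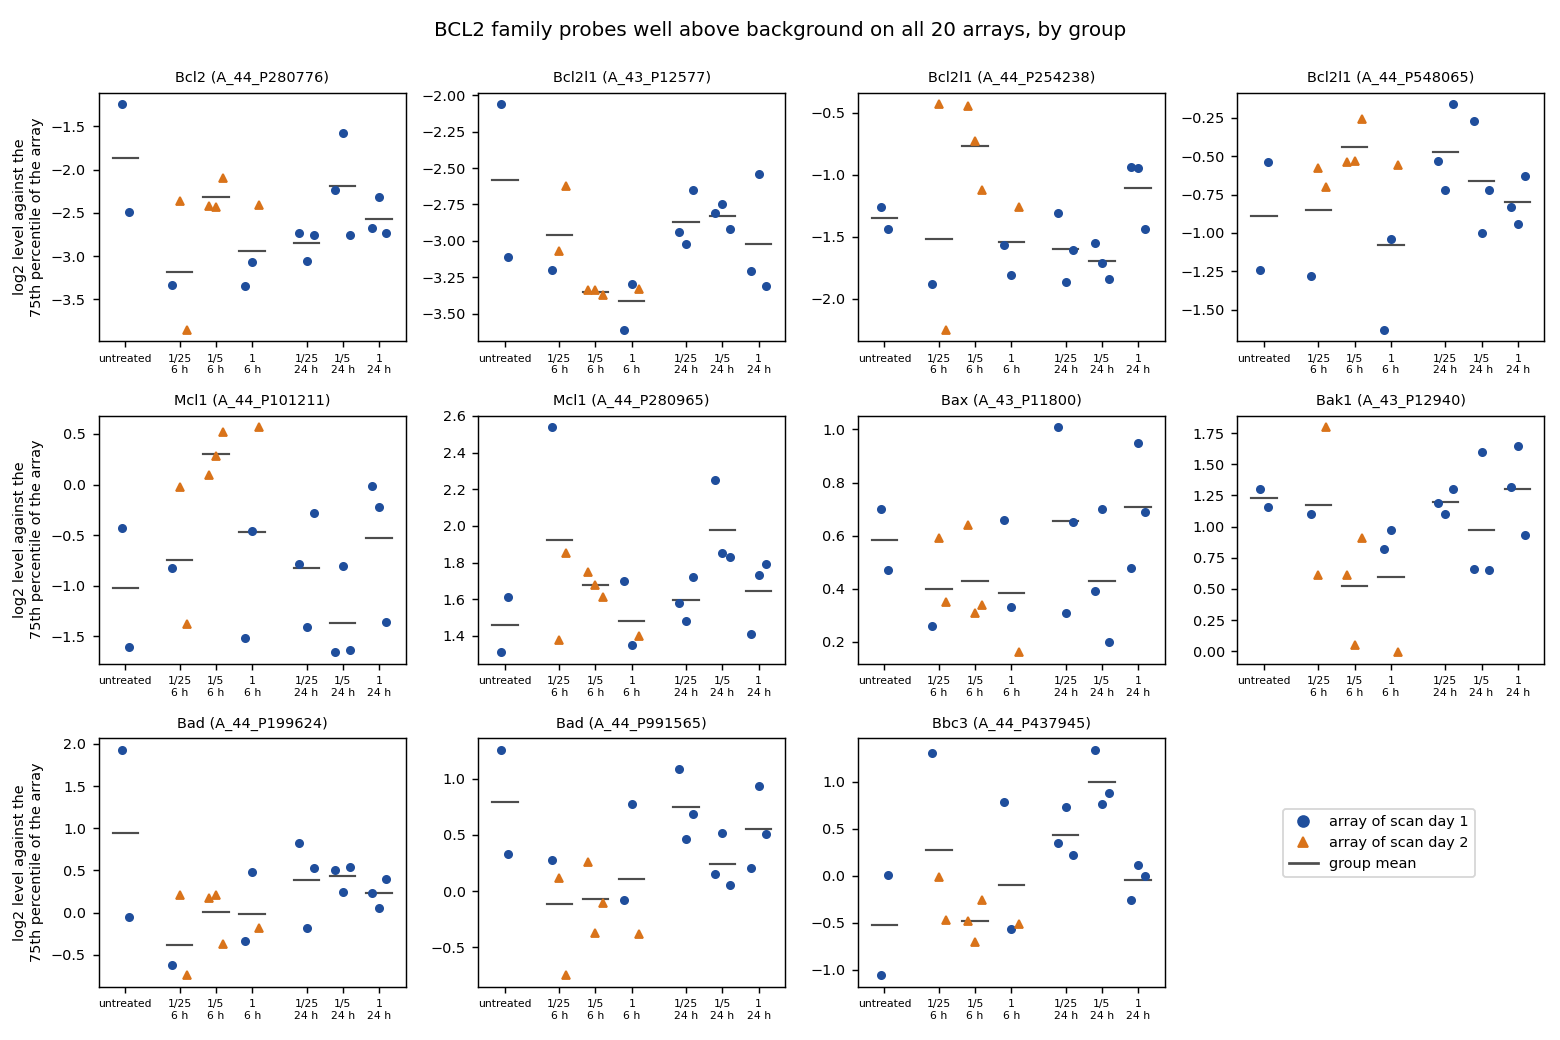
Log2 level relative to the 75th percentile of the array (vertical axis) of the 11 member probes that were well above background on all 20 arrays, by group with untreated at the left and concentrations from low to high within each time; points are arrays, marked by scan day, and bars are group means. The untreated arrays lie 1.99 apart for Bad (A_44_P199624) and 1.25 apart for Bcl2, while the Bax arrays of all groups lie between 0.16 and 1.01.

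**Figure D2:**
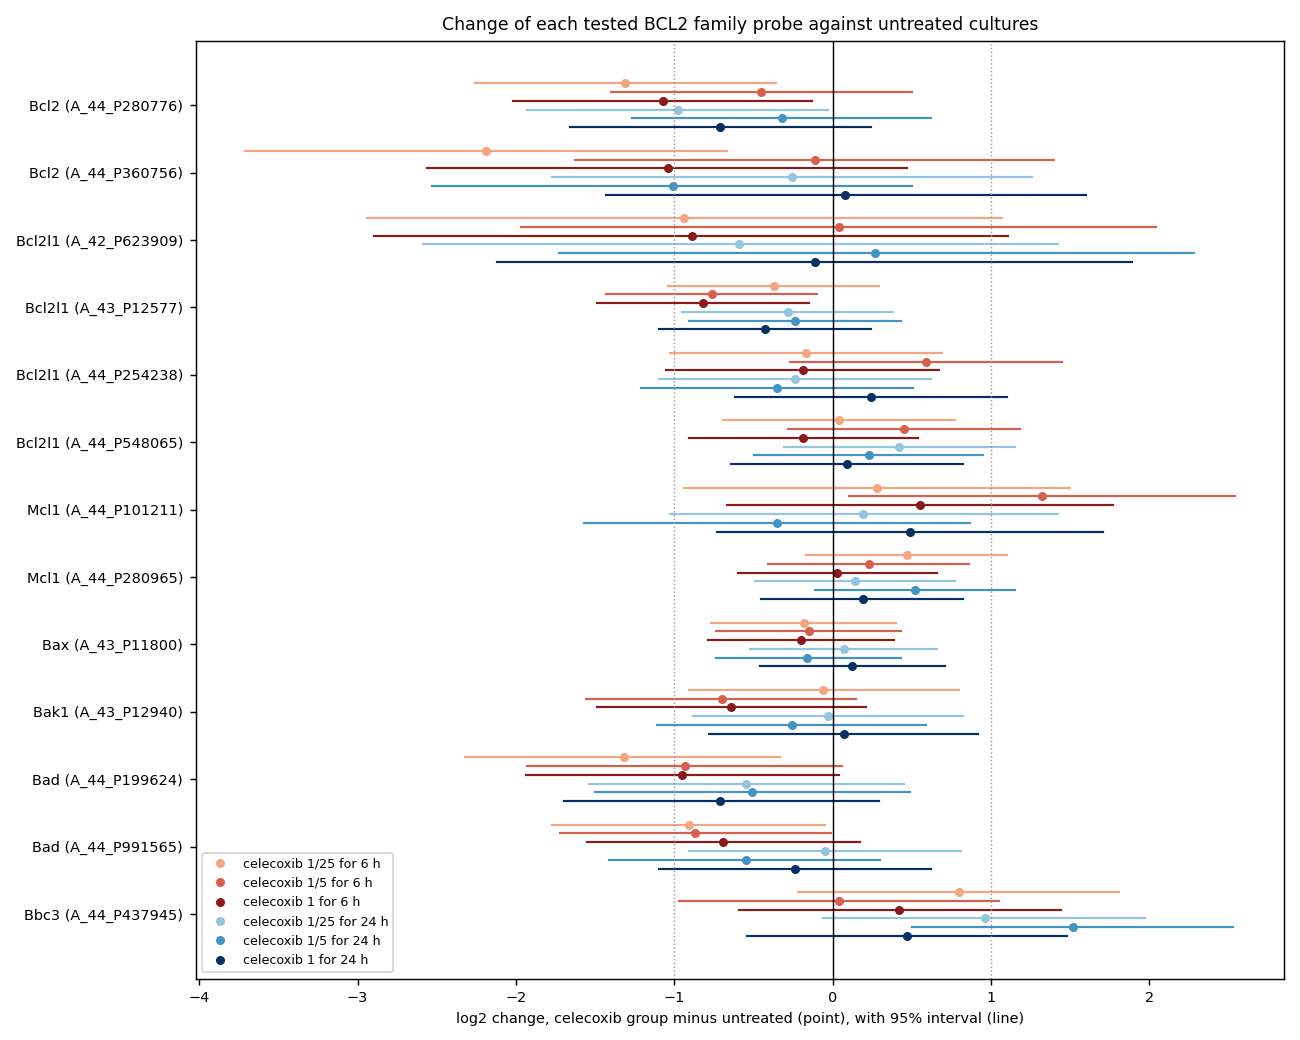
Log2 change of each of the 13 tested member probes in each celecoxib group minus untreated (points) with its 95% interval (lines, horizontal axis); dotted lines mark a change of 1 either way. The Bax intervals all lie between -0.79 and 0.71, and those of the second Bcl2 probe reach from -3.71 to 1.60.

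Among the guardians, Bcl2, the founding member, averaged below untreated in every celecoxib group by probe A_44_P280776, but no change passed the test. At 1/25 for 6 h this probe read -3.33, -2.36 and -3.85, against -1.24 and -2.49 in untreated cultures. The groups overlap, since 1 treated array lies above the lower untreated one. The change was -1.31 ± 0.45 (SE), with a 95% interval of -2.26 to -0.36 and an adjusted p of 0.0794. The fit that takes scan day as a block gave -1.65 ± 0.51 (adjusted p = 0.0514). The change rests on the untreated pair: without untreated replicate 1 the change was -0.69 (adjusted p = 0.644), and without untreated replicate 2 it was -1.94 (adjusted p = 0.0347). It also passed without replicate 2 of 1/25 for 6 h (-1.72, adjusted p = 0.0197).

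The Bcl2 probe read -2.42, -2.43 and -2.10 at 1/5 for 6 h, and -3.34, -3.07 and -2.41 at 1 for 6 h. The changes against untreated were -0.45 ± 0.45 (adjusted p = 0.571) and -1.07 ± 0.45 (adjusted p = 0.228). The changes at 6 h did not follow the order of concentration. At 24 h it read -2.73, -3.06 and -2.75 at 1/25, where all 3 arrays lay below both untreated arrays, as did 19.2% of all tested probes. Its change there was -0.98 ± 0.45 (adjusted p = 0.419). At 1/5 and 1 for 24 h the changes were -0.32 and -0.71, with intervals of -1.27 to 0.62 and -1.66 to 0.24.

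The second Bcl2 probe, A_44_P360756, was well above background on 15 of 20 arrays. At 1/25 for 6 h it read -6.82, -6.01 and -5.33, against -3.08 and -4.65 in untreated cultures, with 1 of the 3 and 1 of the 2 arrays well above background. All treated arrays lay below both untreated ones, as did 19.3% of all tested probes in that comparison. The change was -2.19 ± 0.72 with an adjusted p of 0.0704, and the probe was not well above background on 3 of these 5 arrays. It was -1.41 without untreated replicate 1 (adjusted p = 0.559), -2.98 without untreated replicate 2 (adjusted p = 0.043) and -2.19 without replicate 2 of 1 for 6 h (adjusted p = 0.0483). In the other 5 groups its changes ran from -1.04 to 0.08.

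Bcl2l1 encodes BCL-XL, and its 4 tested probes did not move together. The coding probe shown above, A_44_P548065, read -1.28, -0.58 and -0.70 at 1/25 for 6 h, -0.54, -0.53 and -0.26 at 1/5 for 6 h and -1.63, -1.04 and -0.56 at 1 for 6 h, against -1.24 and -0.54 in untreated cultures. Its changes in the 6 celecoxib groups lay between -0.19 and 0.45, and 4 of the 6 intervals stayed within a change of 1 either way. Probe A_43_P12577, 1399 bases away and sharing 2 RefSeq transcripts with it (NM_031535 and NM_001033672), was printed 10 times on each array. It read -3.61, -3.30 and -3.33 at 1 for 6 h, against -2.06 and -3.11 in untreated cultures, so all treated arrays lay below both untreated ones, as did 16.7% of all tested probes. The change was -0.82 ± 0.32 (adjusted p = 0.199), and -0.30 without untreated replicate 1. Without untreated replicate 2 it was -1.35 (adjusted p = 0.0492). At 1/5 for 6 h the change was -0.76 ± 0.32 (adjusted p = 0.15), and -1.29 without untreated replicate 2 (adjusted p = 0.047).

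Probe A_44_P254238, which shares NM_001033671 with the coding probe A_44_P548065 but is annotated to NM_001033670 and not to NM_031535, read -0.45, -0.73 and -1.12 at 1/5 for 6 h, against -1.26 and -1.44 in untreated cultures. All 3 lay above both untreated arrays, as did 20.1% of all tested probes, with a change of 0.59 ± 0.41 (adjusted p = 0.396). At 1/5 for 24 h it read -1.55, -1.71 and -1.84, a change from 6 h of -0.94 ± 0.36 (adjusted p = 0.12, and 0.0412 without replicate 2 of 1/25 for 6 h). Over 20 arrays its level correlated with that of the coding probe at r = 0.24 (rho = 0.34; r = 0.13 without the 2 arrays farthest from the median). The fourth probe, A_42_P623909, was well above background on 12 arrays, and its intervals reached from -2.94 to 2.28.

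Mcl1, a short-lived guardian needed by heart muscle, gave different pictures through its 2 measured probes, which lie 224 bases apart. Probe A_44_P280965 read 2.54, 1.38 and 1.85 at 1/25 for 6 h and 2.25, 1.85 and 1.83 at 1/5 for 24 h, against 1.31 and 1.61 in untreated cultures. The arrays of 1/5 for 24 h all lay above both untreated arrays, as did 20.2% of all tested probes. The changes were 0.47 ± 0.30 (adjusted p = 0.312) and 0.52 ± 0.30 (adjusted p = 0.44). Taking scan day as a block, the first was 0.82 ± 0.29 (adjusted p = 0.0778). In the other 4 groups it lay between 0.03 and 0.23.

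The neighbouring probe A_44_P101211 had the widest range of group means, 1.67, among the member probes well above background on all arrays. It read 0.09, 0.28 and 0.52 at 1/5 for 6 h, against -0.43 and -1.61 in untreated cultures, a change of 1.32 ± 0.58 (adjusted p = 0.174). At 1/5 for 24 h it read -1.66, -0.81 and -1.64, all below the 6 h arrays, as were 21.6% of all tested probes. That change, 24 h minus 6 h, was -1.67 ± 0.52 (adjusted p = 0.066), while probe A_44_P280965 changed by 0.30 ± 0.27 (adjusted p = 0.5). The probe averaged 0.01 on the 6 arrays of day 2 and -0.93 on the 14 arrays of day 1. Under the scan-day block, the changes were 0.47 ± 0.76 against untreated and -0.82 ± 0.72 between the times. The change between the times passed without replicate 3 of 1 for 6 h (adjusted p = 0.0313).

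Over the 20 arrays the 2 Mcl1 probes correlated at r = -0.40 (rho = -0.44), at -0.39 without the 2 arrays farthest from the median, and at -0.34 and -0.61 within days 1 and 2. The arrays share groups, so these are descriptions. The 3 other genes most like A_44_P101211, of 8314 probes compared over the 20 arrays after the mean of each scan day was taken off, were Armc1 (r = 0.824), ST7 (r = 0.822) and Ezh1 (r = 0.822). Another probe named Mcl1, A_44_P384618, carries another accession (XM_230710) and lies on chromosome 3, while the 2 measured probes are placed on chr2_random. It was well above background on 5 of 20 arrays and was not tested.

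**Figure D3:**
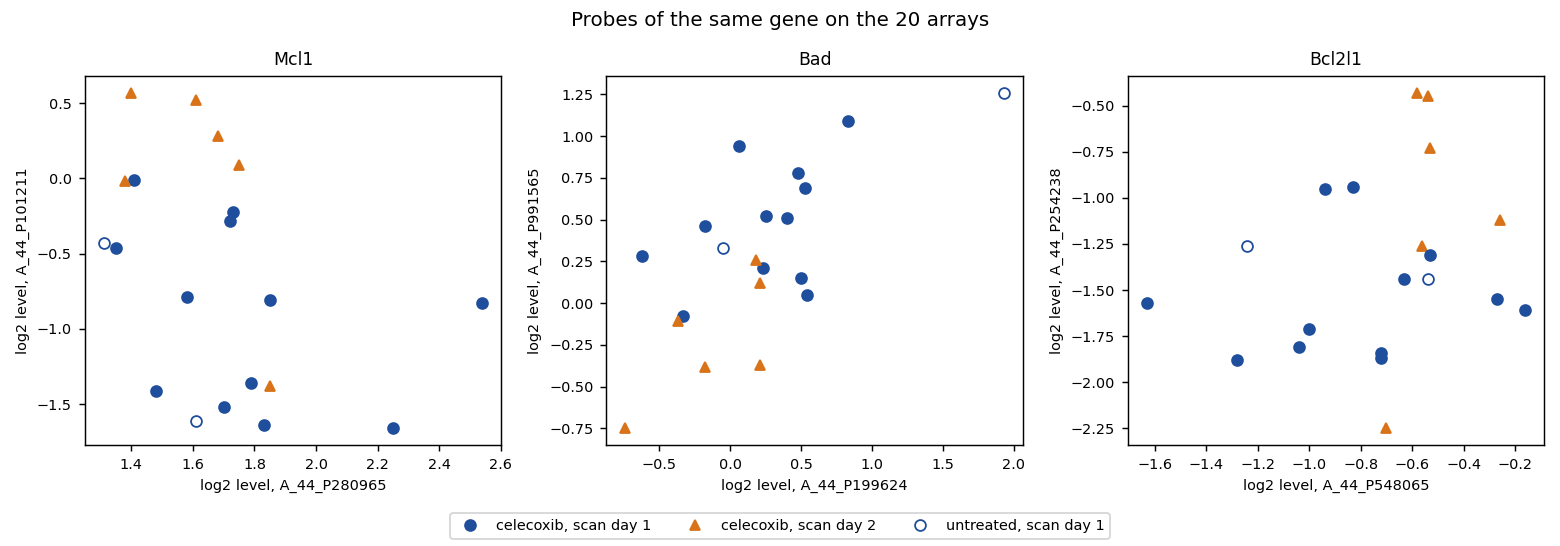
Log2 level of one probe against another probe of the same gene on each of the 20 arrays, for Mcl1, Bad and Bcl2l1; filled marks are celecoxib arrays by scan day and open circles are untreated arrays. The Bad probes correlate positively (r = 0.69), the Mcl1 probes negatively (r = -0.40) and the Bcl2l1 probes show little relation (r = 0.24).

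Of the effectors, Bax was the steadiest member. It read 0.26, 0.59 and 0.35 at 1/25 for 6 h, 0.64, 0.31 and 0.34 at 1/5 for 6 h and 0.66, 0.33 and 0.16 at 1 for 6 h. At 24 h it read 1.01, 0.31 and 0.65 at 1/25, 0.39, 0.70 and 0.20 at 1/5 and 0.48, 0.95 and 0.69 at 1, against 0.70 and 0.47 in untreated cultures. Every group overlapped the untreated arrays. The changes ran from -0.20 to 0.12, and all 6 intervals lay between -0.79 and 0.71, so a change of 1 on the log2 scale lies outside each of them. The probe was printed 10 times per array.

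Bak1, the other pore-forming effector, read 0.61, 0.05 and 0.91 at 1/5 for 6 h and 0.82, 0.97 and -0.01 at 1 for 6 h, against 1.30 and 1.16 in untreated cultures. All 6 treated arrays lay below both untreated ones, as did 30.8% and 16.7% of all tested probes. The changes were -0.70 ± 0.40 (adjusted p = 0.303) and -0.64 ± 0.40 (adjusted p = 0.411). Under the scan-day block they were -0.30 ± 0.53 and -0.50 ± 0.41. At 1/25 for 6 h and in the 24 h groups the changes lay between -0.26 and 0.07.

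Of the BH3-only genes, Bbc3 (PUMA), a p53 target that binds all guardians, had the highest change against untreated of any member. At 1/5 for 24 h it read 1.34, 0.76 and 0.88, against -1.06 and 0.01 in untreated cultures. All 3 treated arrays lay above both untreated ones, as did 20.2% of all tested probes. The change was 1.52 ± 0.48, a 2.86-fold higher level with a 95% interval of 0.50 to 2.53 on the log2 scale, and its adjusted p was 0.177. All arrays of both groups were scanned on day 1, and with scan day as a block the change was the same and the adjusted p was 0.0664. Without untreated replicate 1 it was 0.98 (adjusted p = 0.894), and without replicate 2 it was 2.05 (adjusted p = 0.0902). With the 20 arrays left out in turn under the scan-day block, it passed for 2 of them, untreated replicate 2 (2.05, adjusted p = 0.0271) and replicate 2 of 1 for 6 h (1.52, adjusted p = 0.0302).

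The other concentrations did not follow an order at 24 h. Bbc3 read 0.35, 0.73 and 0.22 at 1/25 and -0.26, 0.11 and 0 at 1, with changes against untreated of 0.96 ± 0.48 (adjusted p = 0.475) and 0.47 ± 0.48 (adjusted p = 0.815). All arrays of concentration 1 lay below those of 1/25, as did 5.82% of all tested probes, by -0.49 ± 0.43 (adjusted p = 1). The difference of that concentration effect between 24 h and 6 h was -0.11 ± 0.61 (adjusted p = 0.999).

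At 6 h the 3 arrays lay 1.77 apart at 1/25, 0.45 at 1/5 and 1.35 at 1, beside 0.51, 0.58 and 0.37 at 24 h. Bbc3 read 1.30, -0.01 and -0.47 at 1/25, -0.48, -0.71 and -0.26 at 1/5 and 0.78, -0.57 and -0.51 at 1, and each group overlapped the untreated arrays. The array at 1.30 was the only one of its group scanned on day 1, and the 6 arrays of day 2 all read -0.01 or less. At 1/25 the change against untreated was 0.80 ± 0.48 (adjusted p = 0.281). It was 1.52 ± 0.46 with scan day as a block (adjusted p = 0.0491), and 1.82 ± 0.55 on day 1 alone, where the treated group is that single array, assumed to vary like the other groups (adjusted p = 0.0615). Without replicate 1 of 1/25 for 6 h it was 0.28 (adjusted p = 0.665), and 0.91 under the scan-day block (adjusted p = 0.537). The blocked change was 0.98 without untreated replicate 1 (adjusted p = 0.36). With each of the 20 arrays left out in turn under the block, it passed for 5 and ran from 0.91 to 2.05, the highest without untreated replicate 2 (adjusted p = 0.0165).

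Between 24 h and 6 h at 1/5, Bbc3 differed by 1.48 ± 0.43, with all 24 h arrays above all 6 h arrays, as were 26.6% of all tested probes. The adjusted p of 0.057 was the smallest of any member in the study. The 24 h arrays were all scanned on day 1 and the 6 h arrays all on day 2, and with scan day as a block, which borrows the day difference from the other 6 h groups, the difference was 0.40 ± 0.51 (adjusted p = 0.879). Without the block it passed when any of 4 arrays of other 6 h groups was left out, replicates 1 and 3 of 1/25 (adjusted p = 0.0183 and 0.0408) and replicates 1 and 3 of 1 (0.0445 and 0.0369).

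**Figure D4:**
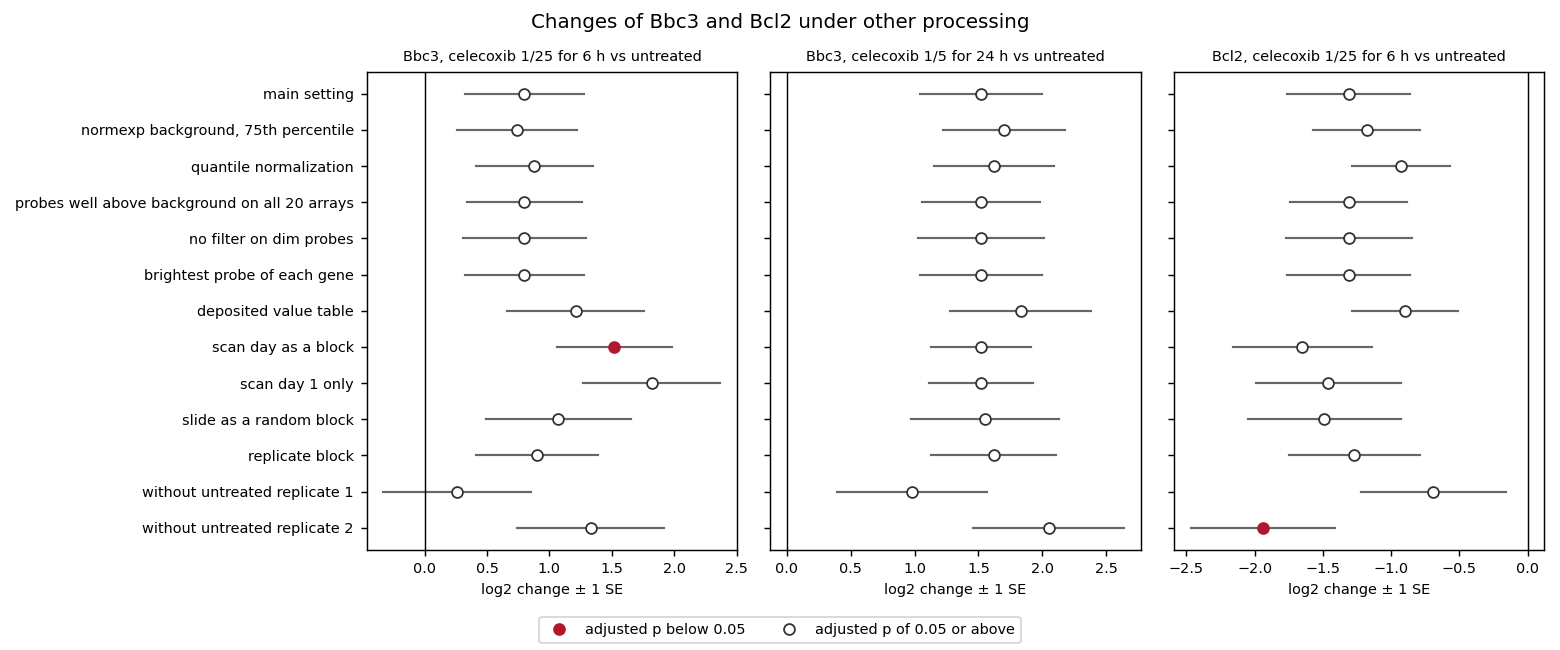
Log2 change (horizontal axis, ± 1 SE) of Bbc3 at 1/25 for 6 h, Bbc3 at 1/5 for 24 h and Bcl2 (A_44_P280776) at 1/25 for 6 h, each against untreated, under the main setting and 12 others; filled marks have an adjusted p below 0.05. Bbc3 passes with scan day as a block at 1/25 for 6 h (1.52), Bcl2 passes without untreated replicate 2 (-1.94), and the change at 1/5 for 24 h lies between 0.98 and 2.05 and passes in none of the settings drawn.

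Bad, a BH3-only protein silenced by phosphorylation under survival signals, averaged below untreated in all celecoxib groups through both probes, with no change past the threshold. At 1/25 for 6 h probe A_44_P199624 read -0.62, 0.21 and -0.74, against 1.93 and -0.05 in untreated cultures. The change was -1.32 ± 0.47 (adjusted p = 0.0878), and the groups overlap. The 2 untreated arrays lay 1.99 apart, and the change was -0.33 without replicate 1 (adjusted p = 0.843) and -2.31 without replicate 2 (adjusted p = 0.0149). It was -1.62 without replicate 2 of 1/25 for 6 h (adjusted p = 0.0388). At 1/5 and 1 for 6 h the changes were -0.93 and -0.95 (-1.93 and -1.94 without untreated replicate 2, adjusted p = 0.0347 and 0.039), and at 24 h they lay between -0.71 and -0.51.

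The second Bad probe, A_44_P991565, read 0.28, 0.12 and -0.75 at 1/25 for 6 h, against 1.26 and 0.33 in untreated cultures. The treated arrays all lay below both untreated ones, as did 19.3% of all tested probes, with a change of -0.91 ± 0.41 (adjusted p = 0.151). Under the scan-day block that was -0.47 ± 0.43. The 2 Bad probes correlated at r = 0.69 over the 20 arrays (rho = 0.58), at 0.46 without the 2 arrays farthest from the median, and at 0.65 and 0.72 within days 1 and 2.

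Bid, which links death receptors to mitochondria after cleavage by caspase-8, and Bcl2l11 (BIM), a direct binder of Bax, were too dim to test. Each had 1 probe, well above background on 6 of 20 arrays and on none of the 6 arrays of 1/25 and 1/5 for 24 h. The Bid probe read from -7.97 to -3.21 and the Bcl2l11 probe from -7.39 to -4.46, and differences between groups at this signal were not measurable.

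Across genes, 21 pairs of members were compared over the arrays with the mean of each scan day taken off, by the brightest probe of each gene, and r ran from -0.49 (Bad and Bbc3) to 0.71 (Mcl1 and Bbc3), above 0 in 11. Mcl1 and Bad were at -0.42. The highest pairs, chosen after their values were seen, are given further. Without that step, Mcl1 by probe A_44_P280965 and Bbc3 correlated at r = 0.69 over the 20 arrays (rho = 0.59), and at 0.44 without the 2 arrays farthest from the median of Mcl1. Within day 1 it was 0.81 over 14 arrays and within day 2 it was -0.51 over 6, so the relation did not hold on both days. Bax and the Bad probe A_44_P991565 correlated at r = 0.66 (rho = 0.61), at 0.51 without the 2 farthest arrays, and at 0.61 and 0.75 within the days. These arrays share groups and normalization, and the values are descriptions.

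Genes around the family were followed in 4 lists. Of 67 tested probes for 46 genes, 3 were called higher and 3 lower at 1/5 for 6 h against untreated (6.22% of all probes called), and 2 higher and 2 lower at 1/25 for 6 h (5.69%). Between 24 h and 6 h, 3 were higher and 2 lower at 1/5 (4.06%), and 1 was higher and 1 lower at 1/25 (2.2%). No other comparison called any. Counted over any of the 12 comparisons, 10 of the 67 probes (14.9%) and 10 of the 46 genes (21.7%) were called, beside 12.5% of all tested probes and 14% of all gene names with a tested probe. Casp9 is among these, and among those called lower at 1/5 for 6 h and higher between the times at 1/5. It entered the tests through the untreated group alone, so its call against untreated follows in part from the filter. A gene with more probes has more chances to be called, and the shares by list below rest on 6 to 16 genes each. The median change of the 67 probes was -0.29 at 1/5 for 6 h and -0.16 at 1/25 for 6 h, beside -0.19 and -0.20 for all tested probes.

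Among other family members, 1 of 10 tested genes was called in any comparison (14% of all gene names), by 1 of 11 probes (12.5% of all probes). Bcl2l2 (BCL-W, a guardian) rose by one probe to 1.55, 1.51 and 1.73 at 1/5 for 6 h, against -0.09 and 0.64 in untreated cultures, a change of 1.32 ± 0.33 (adjusted p = 0.0318). Its other probe changed by -1.48 ± 0.47 in the same comparison (adjusted p = 0.0658), so the 2 probes disagree. Under the scan-day block the first was 0.77 ± 0.38 (adjusted p = 0.275). At 1/25 for 6 h the first probe was also called (1.26 ± 0.33, adjusted p = 0.038), and the other changed by -1.21 ± 0.47 (adjusted p = 0.107). With the block the first changed there by 0.89 ± 0.33 (adjusted p = 0.084).

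In the mitochondrial list, 2 of 16 tested genes were called in any comparison (14% of all gene names), by 2 of 21 probes (12.5% of all probes). One of them, Casp9, the initiator caspase that cytochrome c and Apaf1 activate, was well above background on 6 arrays. It entered the tests through the untreated group alone, so no test is given for it, though its calls are in the counts above. Its level averaged -6.56 at 1/5 for 6 h, all on day 2 and with no array well above background, against -3.76 on the 2 untreated arrays. The filter kept the probe because it was high in untreated cultures, so this gap is not evidence of a change. Cycs (cytochrome c) rose by 1 of 3 probes, to 2.33, 2.41 and 2.36 at 1/5 for 6 h, against 0.94 and 1.53 in untreated cultures (1.13 ± 0.29, adjusted p = 0.035). Taking scan day as a block, that was 1.01 ± 0.37 (adjusted p = 0.16), and the other 2 Cycs probes changed by -0.29 and 0.25.

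In the death receptor list, 3 of 6 tested genes were called in any comparison (14% of all gene names), by 3 of 9 probes (12.5% of all probes). With scan day as a block, 1 of 6 genes (15.2% of all gene names) was called, by 1 of 9 probes (13.5% of all probes). Cflar, which blocks caspase-8 activation, rose at 1/25 for 6 h to 0.24, -0.04 and 0.35, against -0.75 and -0.88 in untreated cultures, by 1.00 ± 0.27 (adjusted p = 0.0428). Under the scan-day block the change was 1.16 ± 0.28 (adjusted p = 0.0203). At 1/25 for 24 h it read -1.36, -0.76 and -0.81, a change from 6 h of -1.16 ± 0.24 (adjusted p = 0.0239; with scan day as a block -1.33 ± 0.26, adjusted p = 0.0188). Ripk1, a kinase of the receptor complex, fell at 1/5 for 6 h by 1.42 on the log2 scale (adjusted p = 0.029, and 0.262 with scan day as a block). At 1/25 for 6 h it changed by -1.32 ± 0.34 (adjusted p = 0.0366). Under the scan-day block that was -0.92 ± 0.34 (adjusted p = 0.0842). From 6 h to 24 h at 1/25 it rose by 1.37 ± 0.30 (adjusted p = 0.0315), and by 0.97 ± 0.31 under the block (adjusted p = 0.114). At 1/5 for 6 h Tradd, an adaptor of that complex, was called lower by 1 of 3 probes (-1.29, adjusted p = 0.0372). The others changed by -0.81 and -1.77 (adjusted p = 0.28 and 0.0988). Under the scan-day block the called probe changed by -0.59 (adjusted p = 0.384) and the others by 0.40 and 0.08.

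Of 14 tested regulators, 4 were called in any comparison (14% of all gene names), by 4 of 26 probes (12.5% of all probes). Cdkn1a (p21), a p53 target like Bbc3, rose at 1/5 for 6 h to 1.66, 1.82 and 2.06, against -1.43 and -0.86 in untreated cultures, by 2.99 ± 0.75 (adjusted p = 0.0327). Over all groups this probe read 0.86 to 2.06 on the 6 arrays of day 2 and -1.43 to -0.19 on the 14 arrays of day 1, and with scan day as a block the change was 0.35 ± 0.43 (adjusted p = 0.669). Its other probe changed by -0.20 ± 0.31. Stat3 likewise read 0.15 to 0.64 on day 2 and -2.65 to -0.92 on day 1. Between 24 h and 6 h at 1/5 it fell by 2.56 (adjusted p = 0.0495), and with scan day as a block it changed by 0.26 (adjusted p = 0.89). The other Stat3 probe changed by 0.26 ± 0.51 between the times without the block (adjusted p = 0.773), so the 2 probes disagree.

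Usp9x, a deubiquitinase known to stabilise the Mcl1 protein, rose between 24 h and 6 h at 1/5 by 1.53 ± 0.38 by 1 of 5 probes (adjusted p = 0.0398; 0.823 with scan day as a block). No other Usp9x probe was called in any comparison, with or without the block. The called probe read 2.84, 2.44 and 2.68 at 1/5 for 24 h, against 0.89 and 0.84 in untreated cultures, all arrays of both groups being of day 1. That change was 1.79 ± 0.42 (adjusted p = 0.089), and with scan day as a block it passed (1.79 ± 0.30, adjusted p = 0.0147). Under the block the same probe was also called higher than untreated at 1/25 for 24 h (1.55 ± 0.30, adjusted p = 0.0277). So it was at 1/25 for 6 h (1.38 ± 0.36, adjusted p = 0.0267). At 1 for 24 h it read 2.08, 2.24 and 2.49 and was not called. Rela, an NF-kB subunit, fell at 1/25 for 6 h by 1 of 2 probes, a change of -1.49 ± 0.43 (adjusted p = 0.0497; 0.0519 with scan day as a block). With scan day as a block, 3 of the 46 genes of the 4 lists were called in any comparison, Cflar, Usp9x and E2f1 (6.52%, beside 15.2% of all gene names).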

How the data were processed

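RNA of 20 samples was amplified, labelled with Cy3 and hybridised to 1-colour Agilent rat arrays, per the labels' protocols. Per the file headers, spot intensity was read by the authors with Feature Extraction 9.5.3.1. The authors also deposited a value table, of the unit ratio: 99.596% of its 820240 cells lay within 1% of the processed signal over the array median, divided by the untreated mean. Medians of its columns were 0.826 to 1.27.

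From the deposited intensity, log2 of the processed signal was taken, less the log2 of each array's 75th percentile. Outlier spots were dropped and spots of a probe averaged, and 31739 of 41012 probes were kept. limma 3.58.1 in R 4.3.3 fitted 7 group means to 20 arrays (13 residual degrees of freedom), with Benjamini-Hochberg adjustment over all tested probes and 12 comparisons. The fit was tested on simulated data with independent noise and no scan-day or slide effect, so that test does not cover such effects.

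Named were all members, up to 4 called genes of each of 4 lists by smallest adjusted p, and the 3 probes most like the bright member probe with the widest group means. Members and lists were chosen with earlier results of these data known. Alternatives were normexp background correction (offset 50), quantile normalization, other filters, the value table, 1 probe per gene, scan day, slide and replicate blocks, and each array left out; the scan-day block with an array also left out was added after seeing the data. Same-numbered arrays of different groups correlated above 0.1 in 9 of 57 pairs, and differently numbered ones in 37 of 114, with a mean r of 0 in both. Group means were taken off first, which constrains these values, so they do not settle whether the labels' replicate numbers pair samples.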

Additional observations from a re-analysis of the deposited data

How the results depend on the processing

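The number of member probes called was 0 in each comparison, and it stayed 0 in 345 of 358 alternative results. Those include comparisons with few or no calls on the whole array, where a member count of 0 says little. With the replicate block the number of member probes called was 0 in all 12 comparisons. For 1/25 for 6 h against untreated, 1 probe was called with scan day as a block, and 0 to 3 when 1 array was left out (3 without untreated replicate 2: Bcl2 by both probes and Bad). Leaving out an array gave 0 to 2 for 1/5 and for 1 for 6 h against untreated, with 2 (Bad and Bcl2l1) without untreated replicate 2 in each. Between 24 h and 6 h at 1/5, 1 was called with normexp background (Bbc3), 2 with only probes well above background on all 20 arrays (Bbc3 and Mcl1), and 0 to 2 when 1 array was left out. When 1 array was also left out under the scan-day block, 12 of the 156 pairs of member probe and comparison passed for at least 1 array, each for 1 to 5 of the 20. No direction was reversed among the single probes followed, and 27 of their 345 alternative values passed the threshold where the main one did not.

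Counts over all probes moved further. At 1/25 for 6 h against untreated they ran from 13 to 5249, at 1/5 for 6 h from 3 to 3966, at 1 for 6 h from 7 to 2364, and between 24 h and 6 h at 1/5 from 6 to 4172 and at 1/25 from 13 to 4768. At 24 h against untreated they ran from 3 to 276 at 1/25, from 4 to 393 at 1/5 and from 3 to 246 at 1, and between the times at concentration 1 from 8 to 406. Between concentrations they ran from 0 to 16 at 6 h and from 0 to 2 at 24 h. For the difference of that effect between the times they were 0 in every setting. The cause was not tested. Fitted with slide as a random block, the correlation within slides was 0.328. The number of arrays, 2 untreated and 3 in other groups, limits the precision, and Bid and Bcl2l11 are limited by signal over background.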
